A study of Rattus norvegicus with 6 samples.

Results

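miR-21 was 1 of 677 rat microRNAs (miRNAs) on the array, and it was found by its name, rno-miR-21, among the miRNA spots of the scanner files. It was printed as 2 probes in 20 spots per array, or 120 spots over the 6 arrays. Plasma of 6 male Wistar rats was measured, 1 array per animal. The 3 thioacetamide rats received 100 mg/kg thioacetamide, a hepatotoxicant, into the peritoneum in 0.9% saline. The 3 vehicle rats received that saline alone. Plasma was taken 24 h after dosing in both groups, and RNA came from an equal volume of 125 µl per animal. The labels give no age. Starting weights were 413 to 428 g for the thioacetamide rats and 393 to 426 g for the vehicle rats. Weight changed by -18, -19 and -20 g in the thioacetamide rats, against 4, 3 and 4 g in the vehicle rats (exact permutation p = 0.1, two-sided, the smallest that 3 against 3 allows).

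miRNAs are short RNAs that guide Argonaute proteins to messenger RNAs, chiefly by pairing through the seed near their 5′ end, and so lower the output of those messages. miR-21 is transcribed in most tissues, is induced in injured, inflamed and fibrotic organs, and is known to repress messages such as that of the tumour suppressor PDCD4. In liver it is present in hepatocytes and in non-parenchymal cells, whereas miR-122 is made almost entirely by hepatocytes. Both are found in plasma outside cells, in vesicles and bound to protein. Plasma RNA does not tell which cells released it, so more releasing cells and more miR-21 released per cell cannot be told apart.

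The gene Mir21 lies on the minus strand at chr10:71902600-71902691 in the rat build GRCr8 (RefSeq). It overlapped 0 other genes of the RefSeq table, and the nearest were Vmp1, 531 bases away, and Tubd1, 13868 bases away. Its hairpin is shown because both arms were on the array. The capitals mark bases 18 to 39, the miR-21 arm, and bases 56 to 77, the miR-21* arm.
Mir21 hairpin: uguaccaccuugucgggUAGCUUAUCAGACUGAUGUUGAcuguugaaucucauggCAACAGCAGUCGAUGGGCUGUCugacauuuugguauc

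The mature sequences of miR-21, of miR-122 and of the other miRNAs that the comparisons turn on are given from RefSeq (GRCr8), each found through the complement of its array probe, with the seed (bases 2 to 8) in capitals.
rno-miR-21 (rno-miR-21-5p): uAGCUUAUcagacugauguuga
rno-miR-122 (rno-miR-122-5p): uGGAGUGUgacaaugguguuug
rno-miR-22 (rno-miR-22-3p): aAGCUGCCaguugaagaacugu
rno-miR-192 (rno-miR-192-5p): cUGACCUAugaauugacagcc
rno-miR-122* (rno-miR-122-3p): aACGCCAUcaucacacuaa
rno-miR-30a (rno-miR-30a-5p): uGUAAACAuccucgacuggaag
rno-miR-29a (rno-miR-29a-3p): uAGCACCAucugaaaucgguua
These 7 seeds all differ. Of 692 other mature rat sequences in the table, 0 held the seed of miR-21, and the longest run of bases that any shared with it was 9 of its 22. No seed relative of miR-21 was therefore found in that table. The tested miRNAs were not all matched to it, so this does not cover every miRNA compared. Of the 11 names looked up, 10 matched, and miR-30d is named only.

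The 2 miR-21 probes differ by a single base at the 3′ end of the DNA, which is in capitals.
miR-21 probe 1: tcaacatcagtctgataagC
miR-21 probe 2: tcaacatcagtctgataag
Probe 1 pairs with bases 3 to 22 of miR-21 and probe 2 with bases 4 to 22, so neither reaches the first bases of the seed, and both pair with its 3′ end.

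Single spots of miR-21 were far brighter after thioacetamide. Values are processed signals in intensity units, already corrected for background by the scanner software. Probe 1 averaged 2186, 823 and 989 on thioacetamide arrays 1 to 3, against 121, 83.6 and 64.3 on vehicle arrays 1 to 3. The lowest single spot of probe 1 on any thioacetamide array was 724, and the highest on any vehicle array was 142, so the spots did not overlap. Probe 2, shorter by that base, was dimmer throughout, at 293, 125 and 144 on the thioacetamide arrays and 17.3, -2.85 and -3.49 on the vehicle arrays. Probe 2 passed the detection call described next on thioacetamide 2 and thioacetamide 3, where probe 1 over probe 2 was 6.57 and 6.88. On thioacetamide 1 and vehicle 1, where it did not, the ratio was 7.45 and 6.99. On vehicle 2 and vehicle 3 no ratio could be formed, because probe 2 averaged below 0. The scanner software marked 7 of the 120 spots as outliers, and these were dropped.

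Every thioacetamide array, and of the vehicle arrays vehicle 1 alone, held miR-21 well above background. A probe was called detected where over 50% of its spots were well above background in the scanner software's own call. All unmarked spots of probe 1 passed that call on the 3 thioacetamide arrays and on vehicle 1, whereas 0 of 10 passed on vehicle 2 and 0 of 9 on vehicle 3. On vehicle 2, 62 of 429 negative-control spots and 52 of 1474 probes detected on no array were brighter than the probe 1 mean. On vehicle 3 these numbers were 116 of 427 and 117 of 1474, while they were 0 on the 3 thioacetamide arrays and on vehicle 1. The dimmest probe called detected had 136 on vehicle 2 and 153 on vehicle 3, above the probe 1 means there. The vehicle 2 and vehicle 3 values of miR-21 are therefore not measured levels but readings within background. Probe 2 passed less often, with 0 of 9 spots well above background on thioacetamide 1, all 9 and all 10 on thioacetamide 2 and thioacetamide 3, and 3 of 9 on vehicle 1.

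**Figure D1:**
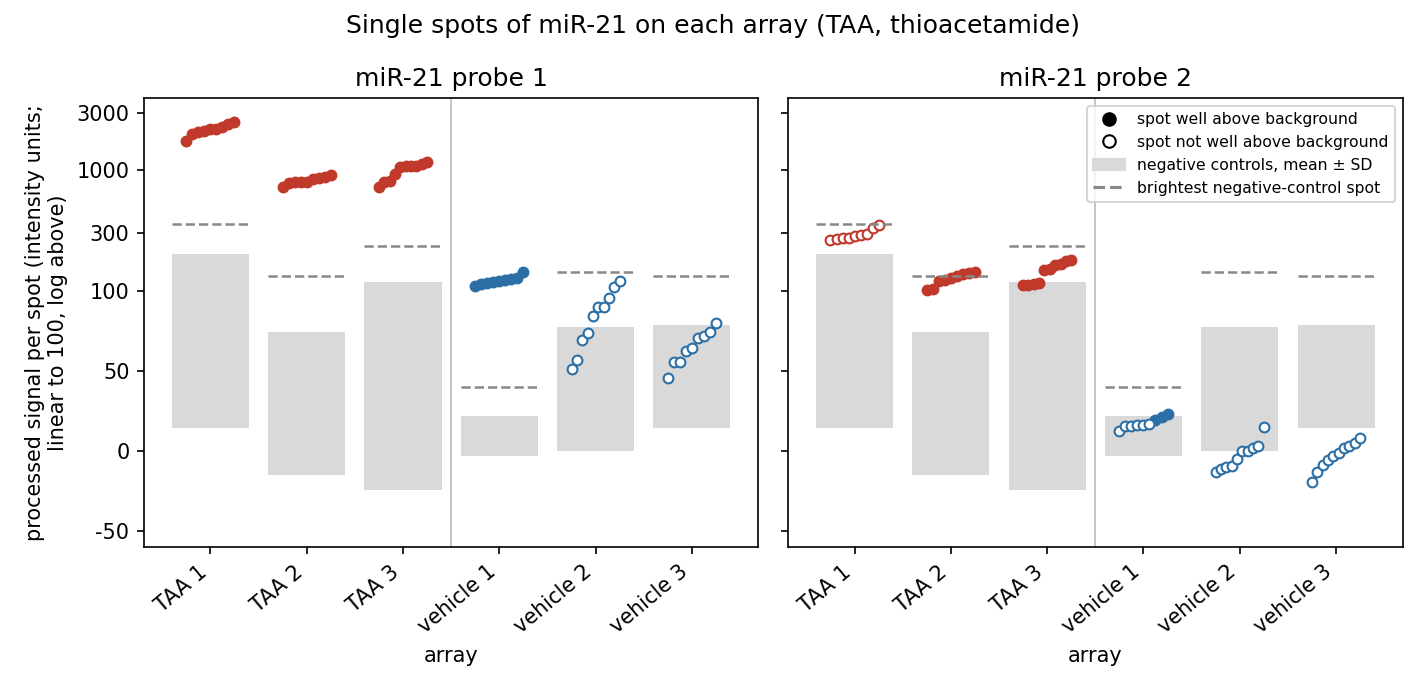
Processed signal of each unmarked miR-21 spot (vertical axis in intensity units, linear to 100 and logarithmic above) on the 3 thioacetamide (TAA) and 3 vehicle arrays, for probe 1 on the left and probe 2 on the right; filled points are well above background, grey bars are the mean ± SD of the negative-control spots and dashed lines the brightest of them. Probe 1 lies above every negative control on the thioacetamide arrays and on vehicle 1, and within the negative controls on vehicle 2 and vehicle 3.

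The arrays differed in background. Median absolute deviations of the miRNA spots were 96.6 on thioacetamide 1, 33.3 on vehicle 2 and 35.5 on vehicle 3, all in slide columns 1 and 2. They were 7.83 on thioacetamide 2, 12.8 on thioacetamide 3 and 4.92 on vehicle 1, in columns 3 and 4. The number of miRNAs detected was 22, 69 and 83 on thioacetamide arrays 1 to 3, against 62, 27 and 16 on vehicle arrays 1 to 3. The sole vehicle array with miR-21 above background is thus also the vehicle array with the lowest background. Columns 1 and 2 and columns 3 and 4 are called slide sides below, and each held arrays of both groups. The labels name no side, and whether all arrays lay on the same slide was not tested.

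After scaling, miR-21 was higher in thioacetamide plasma, and the groups did not overlap. The means of the 2 probes were summed and each array was divided by the 75th percentile of 12 of its probes, those detected on every array. The scaled signal of miR-21 was 1091, 1223 and 908 on the thioacetamide arrays, against 148, 104 and 97.1 on the vehicle arrays. The 3 thioacetamide values lay close together although their unscaled signals, at 2479, 948 and 1133, did not, and the vehicle 1 value was the highest of its group. On the log2 scale the means were 10.06 ± 0.22 for thioacetamide and 6.84 ± 0.33 for vehicle (SD, n = 3 each). miR-21 rose 9.32-fold, a log2 change of 3.22 ± 0.36 (SE, 95% interval 2.36 to 4.08, limma adjusted p = 0.00107 over 59 tested miRNAs). Of the 59, 9 rose (15.3%) and 1 fell (1.69%), 16 had all 3 thioacetamide arrays above all 3 vehicle arrays (27.1%), and the median log2 change was 0.45. By size the change of miR-21 was exceeded by 4 miRNAs and by p-value by 3. The SE of the log2 sum from replicate spots was 0.030 to 0.064 on the thioacetamide arrays and 0.036 to 0.13 on the vehicle arrays.

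Against vehicle 1, the only vehicle array that measured it, miR-21 was higher by 2.88, 3.05 and 2.62 on the log2 scale on thioacetamide arrays 1 to 3. The mean of these is 2.85, or 7.20-fold, with no test against a single array. Within slide columns 1 and 2, which held thioacetamide 1, vehicle 2 and vehicle 3, the log2 change was 3.44, and within columns 3 and 4, which held thioacetamide 2, thioacetamide 3 and vehicle 1, it was 2.83. Each of these sets a single array against the pair of the other group, so they are given as sizes with no test. Since the groups did not overlap, the direction within each side was fixed and the sizes alone are informative. With slide side as a block the change was 3.14 (limma adjusted p = 0.00123).

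miR-21*, from the opposite arm of the same hairpin and usually the less stable strand, was not detected. Its 4 probes had 0 of 120 spots well above background over the 6 arrays. Their means ran between -13.8 and 24.3 intensity units, and their sum was 8.49, 6.02 and 49.8 on the thioacetamide arrays, against 2.47, 33.7 and 16.6 on the vehicle arrays. These probes are shorter than those of miR-21 and their levels cannot be set against it. At this background a change of miR-21* was not detectable.

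miR-122 rose far more than miR-21 on every thioacetamide array. Its scaled signal was 7116, 22851 and 29414 on the thioacetamide arrays, against 78.3, 64.4 and 7.87 on the vehicle arrays. The last of these lay below the floor of 46.1 and was raised to it, and on vehicle 2 and vehicle 3 miR-122 was not well above background, the same pattern as for miR-21. The log2 ratio of miR-122 to miR-21, in which the scaling of the array cancels, was 2.71, 4.22 and 5.02 on the thioacetamide arrays and -0.92, -0.69 and -1.08 on the vehicle arrays. A ratio of 2 probes has no meaningful level, but its difference between groups does: it was 4.88 ± 0.67 on the log2 scale (SE, 95% interval 3.32 to 6.44, limma adjusted p = 0.000790 over 58 ratios; exact permutation p = 0.1, two-sided, n = 3 per group). The fitted difference corresponds to 29.4-fold, and it rests on vehicle 2 and vehicle 3 values at background. Against vehicle 1, where both miRNAs were measured, the 3 differences were 3.62, 5.14 and 5.94. It came to 3.59 on the arrays of columns 1 and 2 and to 5.54 on those of columns 3 and 4. With the floor 4 times as high it was 3.98 and with the floor 0.25 times as high 5.54. The higher floor lies above both miRNAs on all 3 vehicle arrays, so their ratio there is 1 by construction; the lower one moves miR-122 on vehicle 3 alone. Combining each probe of one miRNA with each probe of the other gave 4.22 to 5.93.

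**Figure D2:**
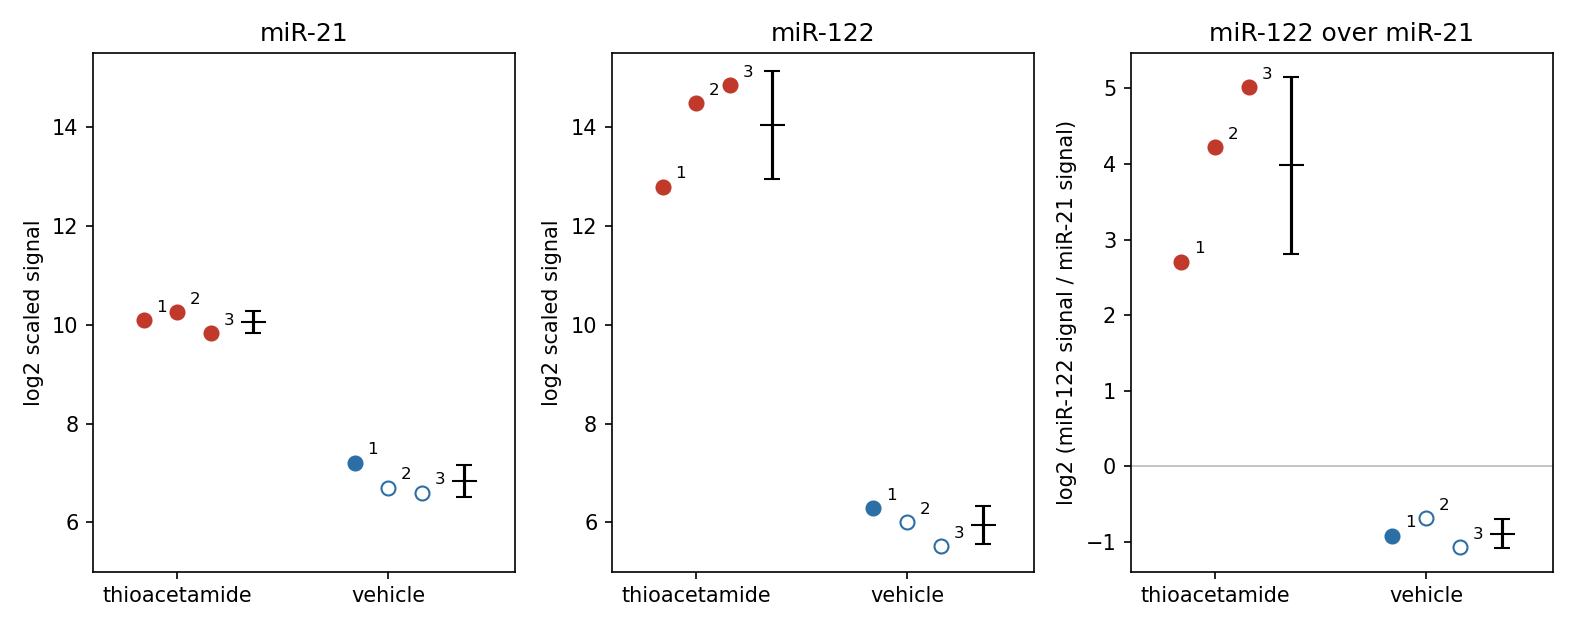
Log2 scaled signal of miR-21 and of miR-122, and log2 ratio of miR-122 to miR-21, on each of the 3 thioacetamide arrays (red) and 3 vehicle arrays (blue), numbered by animal; open points were not well above background (for the ratio, at least 1 of both miRNAs), and bars are the mean ± SD. The miR-21 values of the thioacetamide arrays span 9.83 to 10.26, while the ratio to miR-122 on the same arrays spans 2.71 to 5.02.

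miR-21 and miR-122 did not order the thioacetamide animals alike. By scaled signal, miR-21 was highest on thioacetamide 2 and lowest on thioacetamide 3, within an SD of 0.22. miR-122 was lowest on thioacetamide 1 and spread with an SD of 1.09 on the log2 scale. Unscaled, miR-21 was instead highest on thioacetamide 1 and lowest on thioacetamide 2, at 2479, 948 and 1133 on thioacetamide arrays 1 to 3. Unscaled miR-122 was again lowest on thioacetamide 1, at 16178, 17715 and 36721. The other 8 miRNAs that rose all had their lowest scaled signal of the treated group on thioacetamide 1, and the ratio of each to miR-21 was lowest there. Of the 17 other tested miRNAs detected on all 3 thioacetamide arrays, 12 had their lowest ratio to miR-21 on thioacetamide 1. That array also had the widest background and the largest scale factor, 2.27 against 0.775 and 1.25 for thioacetamide 2 and thioacetamide 3, and the part of these in the order was not tested. The scale factor cancels in the ratios to miR-21 but not in the scaled signals.

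Of the 58 other tested miRNAs, 2 rose more than miR-21 (3.45%), 35 changed by less or in the other direction (60.3%), and 21 ratios did not pass the threshold. The median change of the ratio to miR-21 was -2.80 on the log2 scale. Besides miR-122 the miRNA that rose more was miR-22, abundant in liver, muscle and other tissues. Its log2 ratio to miR-21 was 1.82, 3.05 and 3.28 on the thioacetamide arrays and 0.47, -0.01 and -0.04 on the vehicle arrays, a change of 2.58 ± 0.56 (limma adjusted p = 0.00526). On vehicle 2 and vehicle 3 neither miR-22 nor miR-21 was well above background. Against vehicle 1 the differences were 1.36, 2.58 and 2.81. Over 22 alternatives the change ran from 1.85, on the arrays of columns 1 and 2, to 3.02, without thioacetamide 1. miR-192, expressed in liver, gut and kidney, had a log2 ratio to miR-21 of 0.54, 1.50 and 1.73 on the thioacetamide arrays and -0.64, 0.58 and 0.79 on the vehicle arrays. These overlap, and the change of 1.01 did not pass (95% interval -0.41 to 2.43, limma adjusted p = 0.162), so a rise of miR-192 up to 5.39-fold larger than that of miR-21 remains within the interval. The change was -0.14 on the arrays of columns 1 and 2, whereas those of columns 3 and 4 gave 2.25, and against vehicle 1 it was 1.18, 2.14 and 2.37. In 15 of 22 alternatives the miR-192 ratio again rose without passing. It passed as higher with quantile normalization (1.25, limma adjusted p = 0.0314) and normexp background correction (1.14, limma adjusted p = 0.0193). So it did with the mean of log2 probe means (1.47, limma adjusted p = 0.0263) and the brightest probe alone (1.43, limma adjusted p = 0.0358).

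**Figure D3:**
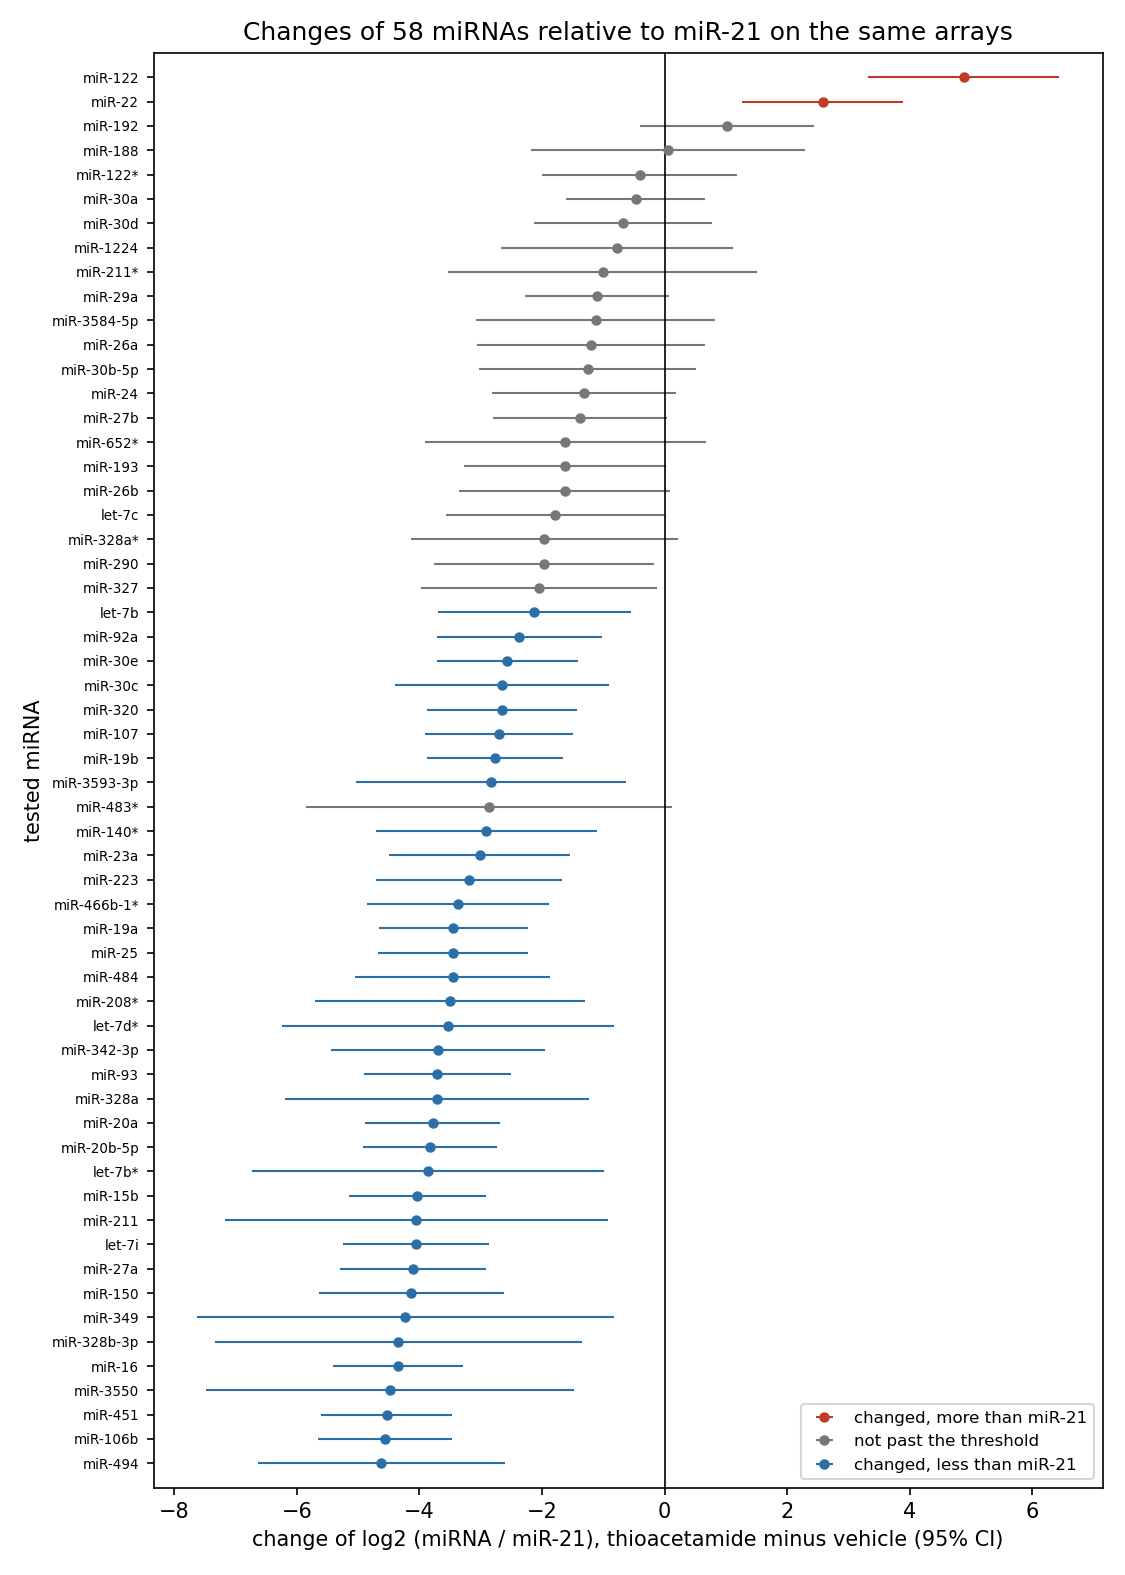
Change of the log2 ratio to miR-21, thioacetamide minus vehicle, for each of the 58 other tested miRNAs, with its 95% interval from limma; red and blue mark ratios past the threshold. miR-122 (4.88) and miR-22 (2.58) lie above 0, 35 miRNAs lie below it past the threshold, and 21 are grey.

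The 8 largest falls of the ratio past the threshold were those of miR-494, miR-106b, miR-451, miR-3550, miR-16, miR-328b-3p, miR-349 and miR-150, between -4.62 and -4.13 on the log2 scale. Their own log2 changes ran from -1.40 for miR-494 to -0.91 for miR-150, and of these that of miR-451 alone passed the threshold. For miR-3550, miR-328b-3p and miR-349 the groups overlapped, and their ratios on thioacetamide 1 were above those on vehicle 1, at -1.63, -1.57 and -0.71 against -1.68, -1.68 and -1.59. On vehicle 1 the signals of miR-3550 and miR-328b-3p were at the floor, so their ratios there are set by it. That of miR-3550 was also at the floor on thioacetamide 2 and thioacetamide 3. The unscaled signals of miR-3550, miR-328b-3p and miR-349 followed slide position. That of miR-349 was 1514, 596 and 637 on thioacetamide 1, vehicle 2 and vehicle 3, in columns 1 and 2. It was 58.4, 117 and 45.9 on thioacetamide 2, thioacetamide 3 and vehicle 1, in columns 3 and 4. The ratio of miR-494 was 2.72 on vehicle 2, against -0.11 on vehicle 1 and -0.36 on vehicle 3, and -4.24 to -3.62 on the thioacetamide arrays. Relative to miR-21, miR-451, a red blood cell miRNA cut by Argonaute itself, fell by 4.53 ± 0.45 (limma adjusted p = 0.000387) and miR-16, abundant in blood cells, fell by 4.35 ± 0.45 (limma adjusted p = 0.000387). miR-451 and miR-16 were well above background on all 6 arrays, so their ratios rest on miR-21 as the sole value within background on vehicle 2 and vehicle 3.

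The profiles nearest to that of miR-21 over the 6 arrays were those of miR-30a, miR-29a, miR-30d, miR-122* and miR-192, all of which rose. Likeness was the root mean square difference of log2 scaled signals after each profile was centred on its own mean, and it was 0.38 for miR-30a, 0.65 for miR-29a, 0.69 for miR-30d, 0.74 for miR-122* and 0.77 for miR-192. miR-30a, a broadly expressed miRNA, had a scaled signal of 257, 468 and 360 on the thioacetamide arrays, against 54.2, 57.5 and 41.9 on the vehicle arrays, the last below the floor. Its groups did not overlap, and its ratio to miR-21 changed by -0.47 (95% interval -1.61 to 0.66, limma adjusted p = 0.383). For miR-30d, of the same family, the ratio changed by -0.68 (95% interval -2.13 to 0.78, limma adjusted p = 0.339). For miR-122*, the passenger arm of miR-122, it changed by -0.41 (95% interval -2.00 to 1.19, limma adjusted p = 0.577). None of these 3 differed from miR-21 past the threshold, and the intervals allow differences of over 1 on the log2 scale in at least 1 direction. With normexp background correction the ratio of miR-30a did pass as lower (-0.93, limma adjusted p = 0.0130). Over 22 alternatives it ran from -1.60 to 0.09, and in 17 it was again below 0 without passing. All 5 miRNAs were picked for a profile like that of miR-21 on the same 6 arrays, and that likeness includes the group difference. Their rise and the small changes of these ratios were therefore largely fixed by the choice, and the p-values are no test of likeness. All profiles share the same 6 arrays, and on vehicle 2 and vehicle 3 neither miR-21 nor any of these 5 miRNAs was well above background. miR-122* was so on no vehicle array, and miR-30d was not so on thioacetamide 1. Some of these rises missed the threshold under other processing. With quantile normalization those of miR-30a, miR-29a and miR-30d did (limma adjusted p = 0.225, 0.0959 and 0.110). With normexp background correction those of miR-30a, miR-30d and miR-122* did (limma adjusted p = 0.108, 0.0766 and 0.0704). The rise of miR-192 passed in both.

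**Figure D4:**
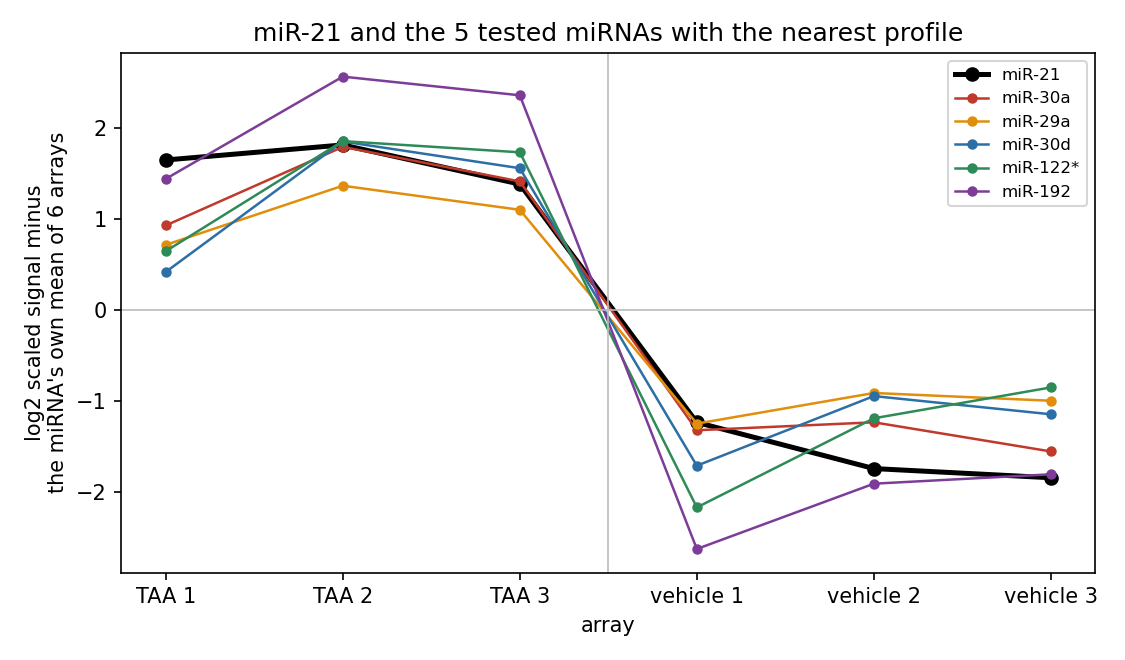
Log2 scaled signal of miR-21 (black) and of the 5 tested miRNAs with the nearest profile on the 3 thioacetamide (TAA) and 3 vehicle arrays, each minus its own mean over the 6 arrays. miR-30a runs closest to miR-21 (root mean square difference 0.38), and all 5 lie below miR-21 on thioacetamide 1.

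Few other miRNAs of injury and fibrosis could be measured. Of 17 such miRNAs listed, 16 were on the array and 6 were detected on any array. Of these 2, miR-21 and miR-29a, were detected on enough arrays to be tested, and both rose, against 15.3% of all tested miRNAs. Each was detected on all 3 thioacetamide arrays and on 1 vehicle array, so it entered the test through the group where it was high. As miR-21 is itself 1 of the 2, the count does not bear on injury miRNAs as a group. miR-29a, known to repress collagen messages, had a scaled signal of 696, 1092 and 909 on the thioacetamide arrays and 179, 225 and 212 on the vehicle arrays. Its groups did not overlap, and its rise of 4.32-fold (log2 change 2.11, limma adjusted p = 0.00760) was smaller than that of miR-21 by 1.11 on the log2 scale without passing (95% interval of the ratio -2.28 to 0.06, limma adjusted p = 0.0782). The ratio of miR-29a to miR-21 was lower on all 3 thioacetamide arrays, at -0.65, -0.16 and 0.00, than on the vehicle arrays, at 0.27, 1.11 and 1.13. Over 22 alternatives the change of that ratio ran from -2.54 to -0.35, and in 17 it did not pass. The rise of miR-29a missed the threshold with quantile normalization (limma adjusted p = 0.0959) and with the 75th percentile over all miRNA probes (limma adjusted p = 0.272). It passed with normexp background correction (limma adjusted p = 0.0348). Listed miRNAs at background on all 6 arrays were miR-29b, miR-199a-5p, miR-214, miR-34a, miR-132, miR-146a, miR-221, miR-222, miR-195 and miR-31. These include miR-199a-5p and miR-214 of activated stellate cells, miR-34a, a target of p53, and miR-146a, induced by inflammatory signalling. Their absence at this background is a limit of detection and not a level of 0.

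Listed miRNAs of the cell types that could supply plasma moved unequally beside miR-21. Of 7 liver miRNAs on the array, miR-194 and miR-101a were at background on every array. Of the 5 tested 4 rose, against 15.3% of all tested miRNAs. These were miR-122, miR-122*, miR-22 and miR-192, while miR-193 did not pass. miR-122 and miR-122* are arms of the same hairpin, and miR-22 and miR-192 are not confined to liver. miR-122 and miR-22 rose more than miR-21, as did 3.45% of all ratios. All 5 tested liver miRNAs were detected on the 3 thioacetamide arrays and on at most 1 vehicle array. They entered the test through the group where they were high, so the count of those that rose was partly fixed by the filter. Their 5 log2 changes ran from 1.59 to 8.10 with a median of 4.23. The summed scaled signal of the liver list was 13244 to 42141 on the thioacetamide arrays and 412 to 559 on the vehicle arrays. Of 4 tested erythrocyte miRNAs 1, miR-451, fell, and the other 3 did not pass, with miR-144 at background on every array. These 4 are among the 8 miRNAs whose probes set the scaling, and without scaling or with spike-in scaling miR-451 did not pass. Its unscaled signal was 8665, 2317 and 3544 on the thioacetamide arrays and 8265, 6428 and 4257 on the vehicle arrays, which overlap. The median log2 change of the 4 was -0.68, with a summed scaled signal of 5921 to 6082 in thioacetamide plasma against 10091 to 12837 in vehicle plasma. Of 2 tested platelet and endothelial miRNAs, miR-24 and miR-27a, 0 passed by limma; at an unadjusted p under 0.05 there was 1 higher, miR-24, and 1 lower, miR-27a. Their log2 changes were 1.91 and -0.88. The summed signal of that list was 252 to 654 in thioacetamide plasma and 235 to 293 in vehicle plasma, with miR-126 and miR-126* at background on every array. Of 3 tested leukocyte miRNAs, miR-223, miR-342-3p and miR-150, 0 passed by limma, and 0 at an unadjusted p under 0.05, with a median log2 change of -0.48 and a summed signal of 428 to 529 in thioacetamide plasma and 393 to 745 in vehicle plasma. The leukocyte markers miR-142-3p and miR-142-5p were at background on all 6 arrays. All 4 erythrocyte and all 3 leukocyte miRNAs fell relative to miR-21 past the threshold, as did 60.3% of all 58 ratios. What part any of these cells had in the rise of miR-21 was not tested.

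miR-21 also made up more of the measured miRNA signal. Its share of the unscaled signal summed over the 59 tested miRNAs was 3.55%, 1.82% and 1.26% on the thioacetamide arrays, against 0.749%, 0.383% and 0.441% on the vehicle arrays. The groups did not overlap, and the means were 2.21% ± 1.19 for thioacetamide and 0.525% ± 0.197 for vehicle (SD, n = 3 each; exact permutation p = 0.1, two-sided, the smallest possible). With miR-122 left out of the sum the shares were 4.63%, 2.76% and 2.14% on the thioacetamide arrays and 0.752%, 0.384% and 0.441% on the vehicle arrays. Shares depend on how brightly each probe responds and are not shares of molecules.

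The size of the miR-21 change depended on scaling and background more than its direction, which was upward in every alternative run. Where the scaled values of the arrays were kept, that direction was fixed, since the groups did not overlap. Without scaling the change was 3.98 on the log2 scale and with spike-in scaling 4.03. These settings moved the median of all tested miRNAs by 0.52 and 0.57, so that miR-21 stood 3.01 above the median in both, against 2.77 as reported. Quantile normalization gave 2.21 and normexp background correction 1.90, or 3.73-fold, the smallest value. The scanner software's own summed signal, which sets miR-21 to 0.1 on vehicle 2 and vehicle 3, gave 4.36 (limma adjusted p = 0.0495). Probe 1 by itself gave 3.05 (limma adjusted p = 0.000822 over 90 probes). Probe 2 by itself gave 2.14 (limma adjusted p = 0.00418) with all 3 vehicle arrays at its floor of 30.4, so its change is set by that floor. The call ended where each array was scaled by the 75th percentile over all miRNA probes, detected or not (2.71, limma adjusted p = 0.178). Without vehicle 3 the change was 2.33, or 5.03-fold, and without thioacetamide 1 it was 2.62, or 6.13-fold, when the scaling was recomputed on the remaining 5 arrays; with the scaling of all 6 arrays kept these values were 3.10 and 3.20.

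**Figure D5:**
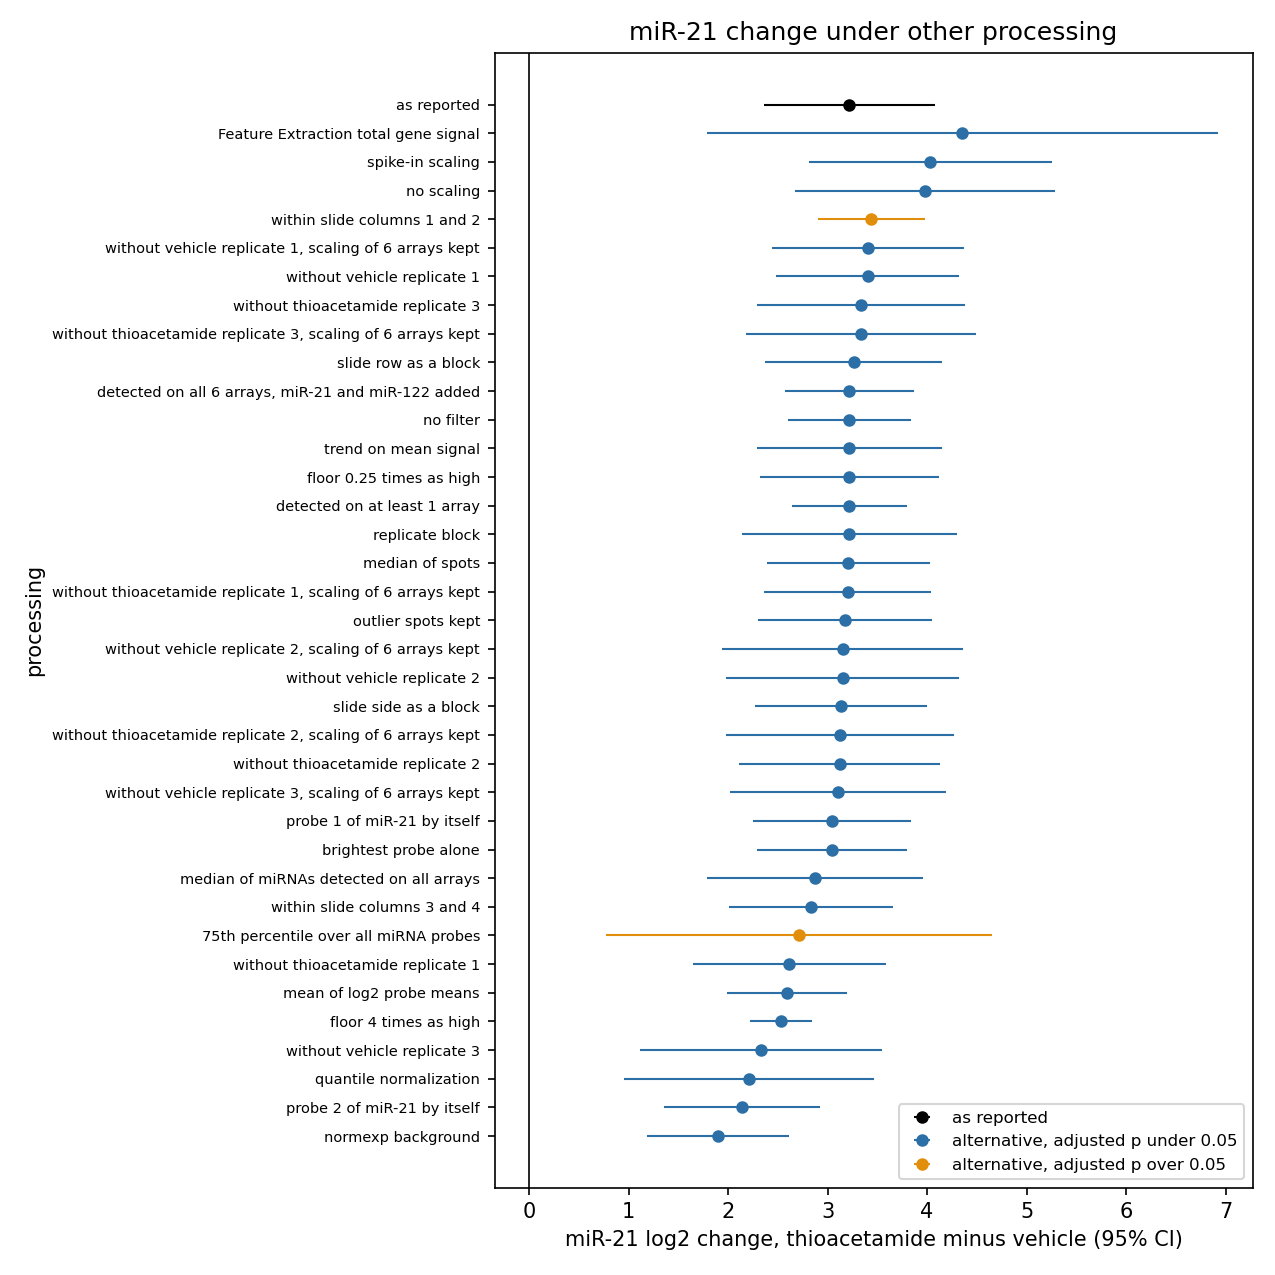
Log2 change of miR-21, thioacetamide minus vehicle, with its 95% interval, as reported (black) and under each alternative, sorted by size; orange marks alternatives with an adjusted p over 0.05. Fits within slide columns have 1 array in a group and borrow the spread of the rest. The values span 1.90 (normexp background) to 4.36 (Feature Extraction total gene signal), all above 0.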

How the data were processed

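Single-colour Agilent arrays were scanned and the authors deposited spot intensity values, background-subtracted and linear, written, per the submitters' processing notes, by Agilent Feature Extraction, version 10.7.3.1. Feature Extraction called a spot well above background with a multiple of 13 per the file headers. Control spots and outlier-marked spots were left out; 0 miRNA spots were saturated. Spots of a probe were averaged, probes of a miRNA summed, arrays scaled by the 75th percentile of the 12 probes (8 miRNAs) that every array detected, sums raised to a floor of 46.1 (5th percentile of detected sums) and log2 taken. The 59 miRNAs with 3 or more arrays above background were fitted with limma 3.58.1 in R 4.3.3 (lmFit, eBayes), and so were the 58 ratios to miR-21; p-values are Benjamini-Hochberg adjusted, threshold 0.05. Single values per array were compared by exact permutation. Arrays were taken as separate animals, since each has its own weights in the labels; their number limits the precision. Fits were tested on simulated data.

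Named miRNAs are miR-21, miR-122 and miR-21*; tested members of the injury and fibrosis list; the 5 nearest profiles; the 8 largest changes of the ratio to miR-21 in each direction; and examples from the liver, erythrocyte, platelet and leukocyte lists. The members and lists were chosen with earlier results of these data known. Alternatives covered background, scaling, floor, filter, probes, slide position, a replicate block and left-out animals.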

Additional observations from a re-analysis of the deposited data

How the results depend on the processing

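The miR-21 change kept its direction in all 36 alternatives. Where the scaled values of the 6 arrays were kept, as in the block, column and filter settings, this was fixed, since the groups did not overlap. The miR-21 change missed the threshold with the 75th percentile over all miRNA probes (2.71). Fits within slide columns 1 and 2 (3.44) or 3 and 4 (2.83) have 1 array in a group and a borrowed spread, so whether they pass is not read. Leaving out 1 animal gave 2.33 to 3.41 with the scaling recomputed, and 3.10 to 3.41 with the scaling of 6 arrays kept, a setting added after seeing the data. The miR-122 to miR-21 ratio ran from 3.59 to 5.93 over 27 alternatives, and 4.39 to 5.47 with 1 animal left out. The difference in miR-21 share ran from 0.794 to 3.14 percentage points over 16 alternatives, and 1.01 to 2.44 with 1 animal left out. Counts of ratios to miR-21 past the threshold, 2 higher and 35 lower, were 1 and 55 with Feature Extraction's total signal, 1 and 7 among the 8 miRNAs detected on all 6 arrays with miR-21 and miR-122 added, 4 higher within columns 3 and 4, 72 lower among miRNAs detected on at least 1 array and 658 lower with no filter, where most are at background; fewer or more were then tested. With 1 animal left out they were 2 higher each time and 12 (without thioacetamide 2), 13 (without thioacetamide 3) and up to 31 lower. The ratio of miR-192 turned to -0.14 within columns 1 and 2 and that of miR-30a to 0.0904 within columns 3 and 4; the cause was not tested. Calls over all tested miRNAs, 9 higher and 1 lower, reached 33 and 4 within columns 3 and 4 and 22 higher without scaling, where miR-451 was no longer called lower, and were 18 and 7 without thioacetamide 1 and 6 and 6 without vehicle 3. Whether replicate numbers pair the animals could not be told. Same-numbered arrays deviated from their group means with correlations of -0.70, -0.31 and -0.66, but each such pair lay on opposite slide sides. Pairs of both groups on the same side had correlations of 0.23, 0.74, 0.73 and 0.59, so pairing cannot be separated from slide position. With a replicate block the miR-21 change was 3.22 (limma adjusted p = 0.0166), the ratio of miR-122 4.88 (limma adjusted p = 0.00798), and 10 miRNAs were higher. Background limits the vehicle values of miR-21 on 2 of 3 arrays, so every fold rests on vehicle 1 and on readings within background.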
